A study of Mus musculus with 18 samples.

Results

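Chromatin accessibility around the genes of the RUNX transcription factors, Runx1, Runx2 and Runx3, and of their shared partner Cbfb was taken from a catalog of cis-regulatory elements (CREs) of bone marrow-derived macrophages (BMDMs). The locus of a gene was its GENCODE body joined with 50 kb to each side of its most upstream start site, on mm10. The 4 loci held 103 of 82391 reference peaks, 103 of 84660 summits and 66 of 59617 extended regions. The catalog came from ATAC-seq, which reads out DNA that the Tn5 transposase can reach, of 18 libraries of wild type mouse BMDMs, which are grown in culture from bone marrow precursors. Every culture was given vehicle (DMSO) for 1 h. The groups were untreated cells and cells exposed to lipopolysaccharide (LPS, a bacterial ligand of TLR4) or to the cytokine IL-4, at 10 ng/mL, for 30 min, 1 h, 2 h or 4 h, with 2 libraries in each of the 9 groups.

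Cbfb encodes the subunit that does not touch DNA itself but joins each of the RUNX proteins and strengthens their hold on it. Runx1 is needed to form blood stem cells and acts with PU.1 and C/EBP factors in the myeloid lineage, Runx2 directs bone formation, and Runx3 acts in T cells, some mononuclear phagocytes and sensory neurons. Each RUNX gene is transcribed from a distal and a proximal promoter, which give proteins with different first residues, while Cbfb lacks this arrangement.

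The 3 lists had been pooled by the authors over all libraries and held 0 columns for single libraries. Replicate error, the depth of each library and the effect of LPS or IL-4 on these loci could therefore not be derived, and no difference below was tested. Values describe the catalog, and the score of a summit is its number in the deposited list, on a scale that the sources do not state. Over all summits the score ran from 102 to 2781 with a median of 737. A reference peak lay within 1000 bp of a start site in 7 of 7 macrophage marker genes (Csf1r, Adgre1, Itgam, Cd68, Mertk, Fcgr1 and Lyz2), against 57% of all protein-coding genes. The same held for 0 of 5 T cell, 0 of 4 erythroid, 0 of 4 epithelial, 1 of 5 neutrophil, 1 of 4 mast cell, 1 of 4 osteoblast and 2 of 4 B cell markers.

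The distal starts of the RUNX genes shared a pair of RUNX motifs. RUNX proteins bind TGTGGT or TGCGGT, which read ACCACA or ACCGCA on the other strand, and both strands were searched. In the 300 bp promoters of RefSeq (250 bp before to 50 bp after the start, GRCm38.p6), the motif occurred 2 times at the distal start of Runx1, 4 times at that of Runx2 and 2 times at that of Runx3. It occurred 0 times at the proximal starts of Runx1 and Runx3 and 0 times at Cbfb. The proximal start of Runx2 was not among the table's entries used here, and 300 bp read from the genome in the same way also held 0 motifs. Of all 32851 RefSeq promoters, 22.4% held the motif. The stretches around the pair are given 5′ to 3′ on the strand of each gene, with the RUNX motifs in capitals, to show that the spacing and orientation were shared.
Runx1 distal start, chr16:92826025-92826054, minus strand: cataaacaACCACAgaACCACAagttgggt
Runx2 distal start, chr17:44814583-44814612, minus strand: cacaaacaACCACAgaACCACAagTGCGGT
Runx3 distal start, chr4:135120503-135120532, plus strand: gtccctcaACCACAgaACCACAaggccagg

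In each of these stretches, both motifs of the pair faced the same way, started 8 bp apart and left 2 bp between them. The longest run of bases common to the 3 stretches was 18 bp. A pair with this spacing was looked for after these promoters had been read. It occurred in 9 RefSeq promoters, or 0.0274% of all, and in 31 reference peaks, or 0.0376% of all, within 100 bp of the summit. The 9 promoters included those of the 3 RUNX genes and that of the noncoding Gm16225, which starts head to head with Runx3 and covers the same bases. At Runx1, the pair began 28 bp after the RefSeq start, in an annotated exon, and its centre lay 24.5 bp from the summit of the peak there. At Runx3, the pair lay before the start, and its centre was 8.5 bp from the summit. At Runx2, the pair also lay in an annotated exon, but 0 reference peaks overlapped it. Thus the shared sequence was within the accessible interval at Runx1 and Runx3 and outside every listed interval at Runx2.

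In windows of 300 bp, composition differed between the distal and proximal starts of Runx1 and of Runx3, and less between those of Runx2. The RefSeq promoters had a GC content of 45.0% at the distal start of Runx1, 45.3% at that of Runx2 and 63.7% at that of Runx3. It was 69.0% at the proximal start of Runx1, 77.3% at that of Runx3 and 69.7% at Cbfb. The ratio of observed to chance CpG, which is near 1 in a CpG island, was 0.137, 0.143 and 0.264 at the distal starts of Runx1, Runx2 and Runx3. It was 1.01 at the proximal starts of both Runx1 and Runx3 and 0.987 at Cbfb. The first 300 bp read at the proximal start of Runx2 had a ratio of 0.395 and a GC content of 48.7%. The 201 bp around the summit of its peak had a ratio of 0.997 and a GC content of 72.1%. With 250 bp to each side of the start, Runx2 differed as well, with ratios of 0.0824 at its distal and 0.803 at its proximal start. In that window the ratios were 0.250 and 0.961 at Runx1 and 0.347 and 0.987 at Runx3. The proximal start of Runx1 and the start of Cbfb are given below, 5′ to 3′ on the strand of the gene, as examples of these CpG-rich sequences without a RUNX motif (no capitals).
Runx1 proximal start, chr16:92697299-92697548, minus strand: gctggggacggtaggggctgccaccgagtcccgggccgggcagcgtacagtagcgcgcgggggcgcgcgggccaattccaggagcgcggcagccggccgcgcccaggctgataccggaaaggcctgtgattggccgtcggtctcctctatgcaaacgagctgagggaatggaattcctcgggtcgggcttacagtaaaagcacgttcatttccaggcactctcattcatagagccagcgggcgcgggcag
Cbfb start, chr8:105170454-105170703, plus strand: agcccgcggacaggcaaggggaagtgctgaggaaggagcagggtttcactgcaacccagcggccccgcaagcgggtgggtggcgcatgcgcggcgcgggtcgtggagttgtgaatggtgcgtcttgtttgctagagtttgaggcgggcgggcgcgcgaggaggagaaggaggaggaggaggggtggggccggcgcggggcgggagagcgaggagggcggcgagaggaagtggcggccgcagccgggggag

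Accessibility was found at 9 of 11 start sites, after starts within 500 bp of each other had been joined. Over all protein-coding genes, 33.4% of start sites joined in this way had a reference peak within 1000 bp, and 57% of genes had a peak at any of their starts. Each of the 4 genes had at least 1. Annotated starts that lie close together share the same peaks and are not separate measurements.

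Cbfb had the highest score at a start site of these genes. Its single joined start (chr8:105170674, plus strand) was covered by a peak of 586 bp, the widest in the 4 loci, with a score of 1747, and 94.1% of all summits scored lower. Further peaks with scores of 812 and 934 followed at 858 bp and 1509 bp, so that 3 of the 7 peaks of this locus were gathered at the start.

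Runx1 was accessible at both promoters. The peak at its distal start (chr16:92825873-92826255) had a score of 1543. The peak at its proximal start, 129 kb downstream (chr16:92697235-92697590), had a score of 1683. Of all summits, 89.1% scored below the distal and 92.6% below the proximal peak. A separate peak with a score of 1345, in an annotated exon, was the nearest to the start at 130 kb, and it held a RUNX and an AP-1 motif. The most downstream start, at 131 kb, had its nearest peak 1127 bp away and therefore counted as lacking a peak.

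Runx2 had peaks at its proximal but not at its distal promoter. No peak was present within 1000 bp of its distal start (chr17:44814797, minus strand), and the nearest one began 16529 bp further upstream. The stretch without a reference peak around this start measured 47880 bp. The proximal start at 78.1 kb (chr17:44736347-44736652) had a score of 979, equal to the median of all peaks at start sites, and 65.9% of all summits scored lower. A narrow peak of 144 bp with a score of 780 lay at the start at 80.1 kb. The absence of a listed peak says only that no interval there met the authors' criteria, a threshold on the q-value and overlap between replicates.

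Runx3 had lower best scores at its starts than Cbfb and than the distal and proximal starts of Runx1. The distal start (chr4:135120652, plus strand) had a peak of 211 bp that ended 5 bp before it, with a score of 376, and 12.3% of all summits scored lower. The proximal start at 31.8 kb reached a score of 780, with further peaks of 675, 505 and 274 within the next 2 kb. The last start, at 33.8 kb, had a best score of 505. Among peaks within 1000 bp of any annotated start, the middle range (from the first to the third quartile) was 593 to 1480. Thus the best peaks of the distal and of the last start of Runx3 lay below this range, those of the proximal starts of Runx2 and Runx3 lay inside it, and the best peak of Cbfb and the best at each promoter of Runx1 lay above it. The other peaks at the start of Cbfb (812 and 934) lay inside the range.

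**Figure D1:**
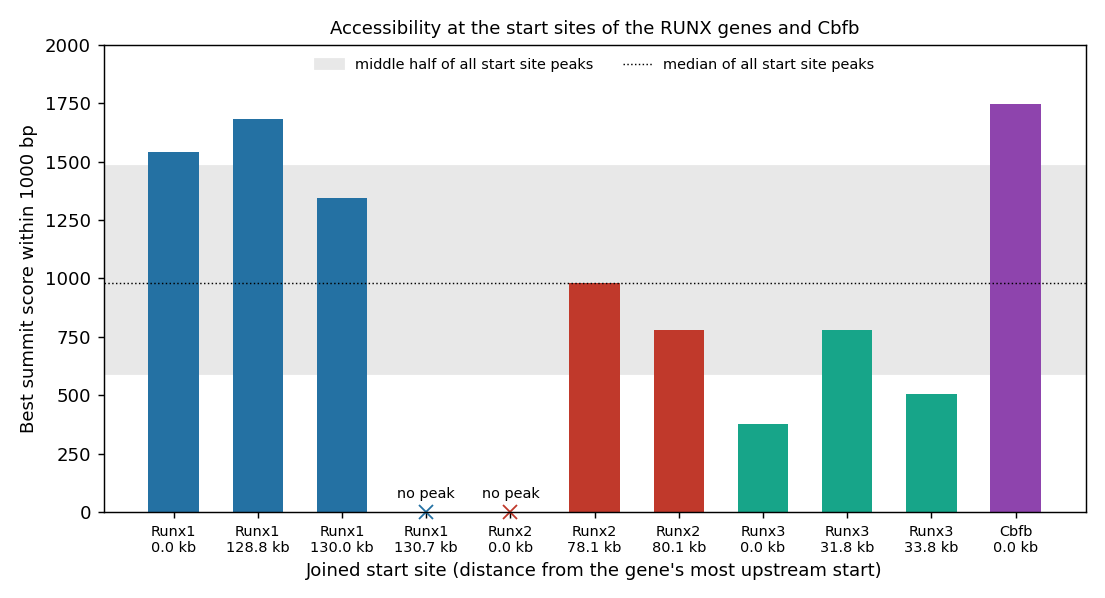
Best summit score within 1000 bp (vertical axis, scale not stated by the authors) at each of the 11 joined start sites of Runx1, Runx2, Runx3 and Cbfb, labelled by the distance in kb from the gene's most upstream start. Bars are single catalog values without replicates, crosses mark starts without a peak, the grey band runs from the first to the third quartile of all 23394 start site peaks (593 to 1480) and the dotted line their median (979); the bars of Cbfb (1747), and of Runx1 at 0 kb (1543) and 129 kb (1683), rise above the band.

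Runx1 held 50 of the 103 peaks, with peaks upstream of its distal start, between its promoters and downstream of both. The gene (ENSMUSG00000022952.17, chr16:92601466-92826149, minus strand) spans 225 kb. Counted by summit, its reference peaks numbered 10 upstream of the distal start, 23 from there to the proximal start and 17 downstream of the proximal start. The 23 include summits at the promoters themselves, among them those with scores of 1543 and 1683. The median score of the 10, 23 and 17 peaks was 1042, 823 and 706 in that order. The best scored summit of all 4 loci lay upstream, at -41.3 kb, with a score of 1916. Within the Runx1 locus, it was followed by intronic summits at 38.9 kb with 1864 and at 205 kb with 1773. The proximal start with 1683 and an intronic summit at 25.1 kb with 1644 came next. The widest peak of the locus, at 150 kb, measured 534 bp and had a score of 1531.

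Of the 29 extended regions of Runx1, 18 held 1 peak and 11 held 2 or more. A neighbouring intronic peak at 24.4 kb, with a score of 1406, lay 743 bp from the one at 25.1 kb, and each held a RUNX motif. The first long intron of Runx1 is known to hold an enhancer active in blood stem cells; whether these peaks belong to it was not tested. The extended regions with the most peaks were those of the promoters, with 5 peaks each, over 5509 bp at the distal and 3721 bp at the proximal start. Between 43.2 kb and 93.5 kb lay a stretch of 50180 bp with 0 reference peaks, the longest gap between neighbouring peaks in the 4 loci. Noncoding genes shared peaks with this locus, with Gm49723 starting near a summit of 990 and Gm26626 near a summit of 1296.

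The peaks at -41.3, 24.4 and 25.1 kb of Runx1 are shown because they are among its best scored distal peaks with a RUNX motif and include the intronic group. Each sequence holds the 201 bp around the summit, 5′ to 3′ on the strand of Runx1, with the RUNX motif in capitals. The centre of the motif lay 9 bp, 20 bp and 50 bp from the summit, in that order.
Runx1 -41.3 kb, chr16:92867326-92867526, minus strand: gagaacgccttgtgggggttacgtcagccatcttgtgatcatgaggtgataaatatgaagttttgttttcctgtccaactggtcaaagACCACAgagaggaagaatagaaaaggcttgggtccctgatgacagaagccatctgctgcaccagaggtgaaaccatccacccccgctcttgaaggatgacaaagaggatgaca
Runx1 +24.4 kb, chr16:92801683-92801883, minus strand: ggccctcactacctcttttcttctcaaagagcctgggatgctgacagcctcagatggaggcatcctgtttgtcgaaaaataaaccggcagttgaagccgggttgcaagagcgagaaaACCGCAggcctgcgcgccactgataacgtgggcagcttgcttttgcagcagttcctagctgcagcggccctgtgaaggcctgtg
Runx1 +25.1 kb, chr16:92800940-92801140, minus strand: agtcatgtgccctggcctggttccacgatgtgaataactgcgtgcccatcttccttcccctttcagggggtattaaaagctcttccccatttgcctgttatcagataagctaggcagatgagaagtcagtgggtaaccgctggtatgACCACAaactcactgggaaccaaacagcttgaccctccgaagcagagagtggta

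Runx2 held 29 peaks, 28 of them in its body. The gene (ENSMUSG00000039153.16, chr17:44495987-44814797, minus strand) is the longest of the 4, at 319 kb, and had 23 of its peaks downstream of the proximal start. Only 5 lay between the promoters and 1 upstream. The last 104439 bp of the gene, at its 3′ end, held 0 reference peaks, a longer stretch than any gap between neighbouring peaks of the 4 loci. Summits with scores of 1773, the best of the locus, and 1493 were not at a Runx2 start but at that of Supt3, a gene for a subunit of a histone acetyltransferase complex, which starts inside Runx2 37645 bp downstream of the distal start, on the opposite strand. The best summit away from every annotated start was intronic, at 151 kb, with a score of 1505 and a RUNX motif whose centre was 1 bp from the summit. An intronic summit at 201 kb had a score of 1236. The widest peak, of 423 bp, was the one at Supt3, and no extended region of the locus held more than 2 peaks. The antisense gene Runx2os2 started near a summit of 1164, and Runx2os1 shared the peak of the proximal promoter. Runx2os3 and n-R5s27 also start in the locus, with 0 peaks within 1000 bp.

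Runx3 held 17 peaks, of which 10 lay in its body. The gene (ENSMUSG00000070691.10, chr4:135120652-135177990, plus strand) spans 57.3 kb. Its best summit was intronic, at 8.36 kb downstream of the distal start, with a score of 1332 and no RUNX motif. The second, at -40.6 kb, had a score of 1296 and held a RUNX and an AP-1 motif, in the widest peak of the locus (298 bp). Summits with scores of 990 at 39.7 kb, 802 at -35.0 kb and 780 at the proximal start came next. The summit at -40.6 kb belonged to a group of 6 upstream peaks between -47.0 kb and -32.0 kb, of which 3 held a RUNX motif. A gap of 31697 bp separated this group from the distal start. The proximal promoter formed the extended region with the most peaks, with 4 over 3026 bp. Of the noncoding genes that start in the locus, Gm16225 shared the distal peak and Gm16224 had 0 peaks within 1000 bp.

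The best distal peak with a RUNX motif of Runx2 and that of Runx3 are given in the same way, as 201 bp around the summit on the strand of the gene.
Runx2 +151 kb, chr17:44664035-44664235, minus strand: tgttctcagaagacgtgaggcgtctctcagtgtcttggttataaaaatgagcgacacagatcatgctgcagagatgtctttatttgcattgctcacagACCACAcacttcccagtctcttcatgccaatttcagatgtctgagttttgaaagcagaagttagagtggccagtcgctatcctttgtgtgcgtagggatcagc
Runx3 -40.6 kb, chr4:135079910-135080110, plus strand: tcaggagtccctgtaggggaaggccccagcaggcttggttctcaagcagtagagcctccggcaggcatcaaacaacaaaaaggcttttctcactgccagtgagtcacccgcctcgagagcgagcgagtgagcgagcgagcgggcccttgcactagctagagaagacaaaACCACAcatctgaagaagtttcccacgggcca

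Cbfb held 7 peaks, and those away from its start scored lower. The gene (ENSMUSG00000031885.14, chr8:105170674-105217989, plus strand) spans 47.3 kb. Beside the 3 peaks at the start, peaks had scores of 759 at -49.5 kb, 505 at -2.61 kb, 554 at 16.1 kb and 613 at 47.5 kb. Thus each distal peak scored below all 3 peaks at the start. Of the other genes starting in the locus, Gm22063 shared the peaks at the start of Cbfb, and Ces4a, Gm3830 and Gm24629 had 0 peaks within 1000 bp. The outermost peaks, at -49.5 and 47.5 kb, held a RUNX motif, and the latter, just past the gene's end, was the only peak of the 4 loci with a CTCF motif.

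**Figure D2:**
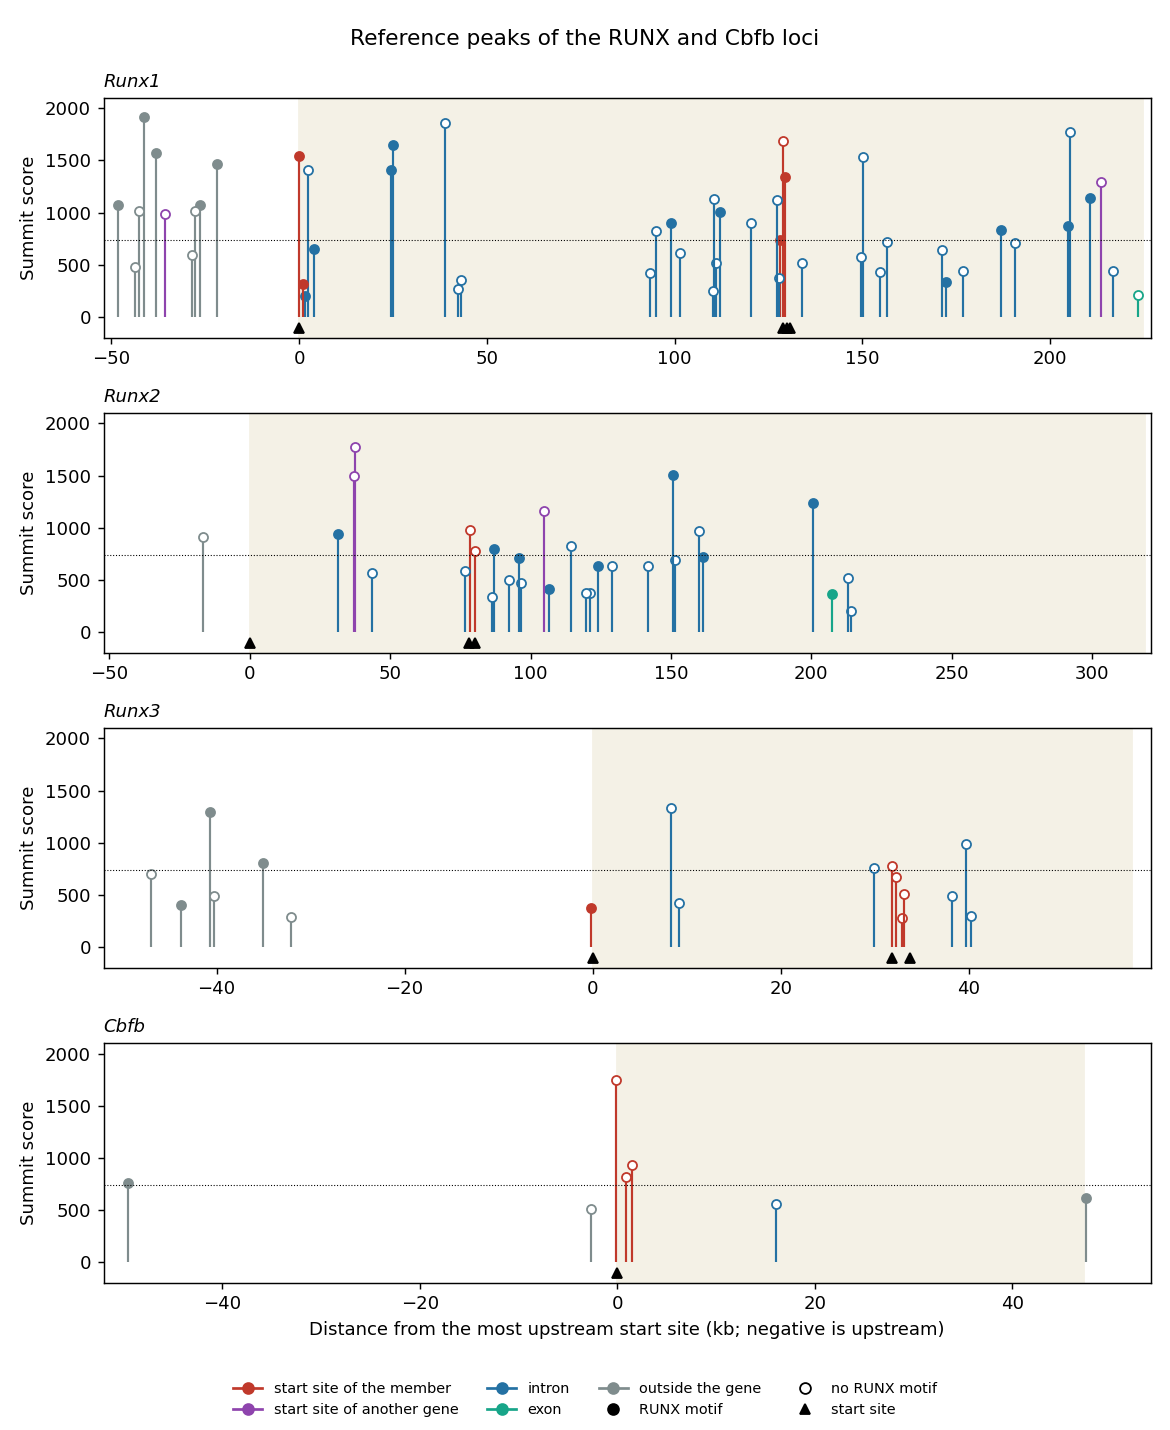
Summit score (vertical axis, scale not stated) of each reference peak against its distance in kb from the gene's most upstream start (horizontal axis, different for each gene). Shading marks the gene body, triangles the joined start sites, colours the position of the summit, filled points a RUNX motif within 100 bp, and the dotted line the median of all summits (737). Peaks of Runx1 lie upstream of the gene and in its body, with a gap of 50180 bp, those of Runx2 lie mostly downstream of its proximal start, and the highest peak of Cbfb (1747) is at its start.

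The number of elements near the start was close to the median of all genes for Runx2 and Cbfb and above it for Runx1 and Runx3. Within 50 kb of the most upstream start, 10 extended regions were counted for Runx1, 4 for Runx2, 11 for Runx3 and 5 for Cbfb, against a median of 4 over 21755 protein-coding genes. Of these genes, 84.0% had fewer than Runx1, 42.3% fewer than Runx2, 88.4% fewer than Runx3 and 50.2% fewer than Cbfb. The region of Runx3 furthest upstream counted by the overlap of its edge, while its peak lay outside the window. The window did not reach the ends of Runx1, Runx2 and Runx3. Per 100 kb of gene body, reference peaks numbered 17.8 in Runx1, 8.78 in Runx2, 17.4 in Runx3 and 8.45 in Cbfb, against a median of 3.88 over the 6101 genes of at least 40 kb. The ranks of Runx1 and Runx3 among genes fell in the narrower window of 20000 bp, where 1 and 2 extended regions were counted, and 27.2% and 42.6% of genes had fewer.

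**Figure D3:**
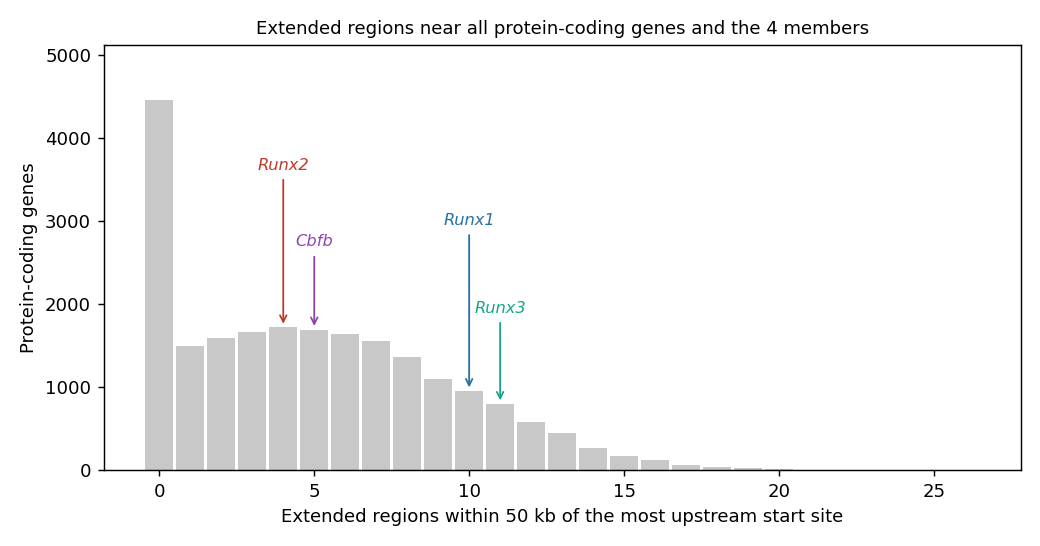
Number of protein-coding genes (vertical axis) by the number of extended regions within 50 kb of the most upstream start site (horizontal axis). Arrows mark the bars that hold the 4 genes, with Runx2 at 4 and Cbfb at 5, near the median of all genes (4), and Runx1 at 10 and Runx3 at 11, above the third quartile (8).

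Scores of the loci lay close to those of the catalog. The median score of the 103 peaks was 716, and 48.5% of them reached the median of all summits. By gene, the median score was 850.5 for Runx1, 685 for Runx2, 505 for Runx3 and 759 for Cbfb. Summits at or above the catalog median numbered 28 of 50 at Runx1, 12 of 29 at Runx2, 6 of 17 at Runx3 and 4 of 7 at Cbfb. Peaks within 1000 bp of a start were assigned to it first. They numbered 15 at a start of the gene itself and 5 at a start of another gene, or 20 of 103. Over the catalog, such peaks numbered 23394 of 82391. Of the others, 62 were intronic, 19 outside the genes and 2 in an exon. The locus takes in the whole gene body, which 82 of the 103 peaks overlapped, so the rule itself favours intronic peaks. Median width was 223 bp, against 227 bp over all reference peaks.

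The RUNX motif was found near the summit of 34 of the 103 peaks (33.0%), against 22.9% of all reference peaks. The count was 19 of 50 at Runx1, 9 of 29 at Runx2, 4 of 17 at Runx3 and 2 of 7 at Cbfb. Among the 50 peaks at or above the median score, 44.0% held the motif, against 23.0% of all reference peaks so filtered. Of the 50, 28 belonged to Runx1, and these held the motif more often than the rest. With a longer consensus, which adds a T to the motif, 12.6% of the 103 peaks held it, against 9.07% of all. The median score of peaks with and without the motif was 1071 and 644 at Runx1, 716 and 634 at Runx2, 602 and 505 at Runx3, and, in the other direction, 686 and 812 at Cbfb. Over the whole catalog these medians were 737 and 727. Where the motif was present, its centre lay a median of 43.5 bp from the summit at Runx1, 21.5 bp at Runx2, 50.0 bp at Runx3 and 24.5 bp at Cbfb, and 39.5 bp over all peaks. At the distal peaks, which lie over 1000 bp from any annotated start, 34.9% held the motif, against 24.9% in the catalog. A match of letters does not show binding.

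Other motifs were counted in the same windows. The AP-1 motif (TGACTCA or TGAGTCA) is bound by the FOS and JUN factors that inflammatory signals activate. It was found in 24 of the 103 peaks, or 23.3%, against 16.2% of all. The motif was in 19.5% of all distal and 7.86% of all start site peaks, and 83 of the 103 peaks were distal. It occurred in 11 of 29 peaks of Runx2, all of them intronic, in 11 of 50 of Runx1, in 2 of 17 of Runx3 and in 0 of 7 of Cbfb. The RUNX and AP-1 motifs occurred together in 7 peaks, or 6.80%, against 3.77% of all. Each motif alone also had a higher share here than in the catalog, and co-occurrence beyond these single shares was not tested. The motif of STAT6, the factor activated by IL-4 (TTC and GAA separated by 4 bases), was found in 12 peaks or 11.7%. Of all peaks, 6.87% held it, and of all distal peaks 7.82%. Of the 12, 7 belonged to introns of Runx1. The C/EBP motif (TTGCNNAA) occurred in 13 peaks or 12.6%, against 11.4% of all, and the PU.1/ETS motif (GAGGAAGT) in 8 or 7.77%, against 9.22%. The NF-kB motif was found in 5 or 4.85%, against 5.57% of all. The E-box (CACGTG) was in 6 or 5.83%, against 4.76%, and the SP/KLF motif (GGGGCGGGG) in 4 or 3.88%, against 4.31%. No peak held the motif of interferon regulatory factors (IRF, GAAA 2 times with 2 bases between them), found in 3.66% of all, the CRE motif (TGACGTCA, 0.927%) or the MEF2 motif (0.87%). CTCF was matched in 1 peak or 0.971%, against 3.09%. Motifs were searched separately and may overlap. With 7 to 50 peaks for each gene, such small counts only describe the loci.

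**Figure D4:**
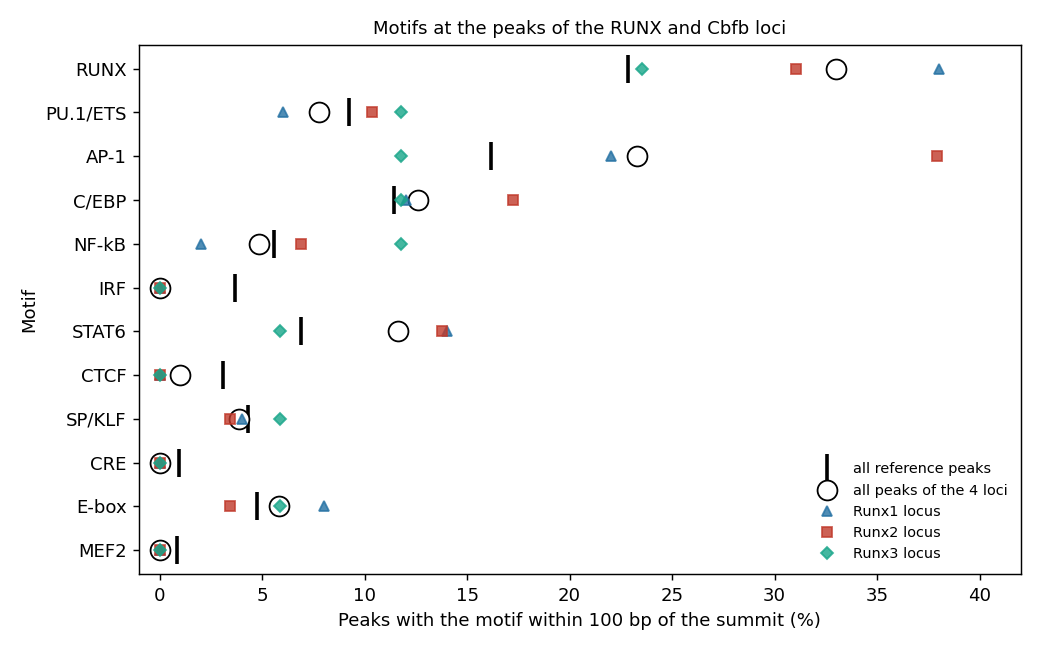
Share of reference peaks with each motif within 100 bp of the best summit (horizontal axis, percent) for the 4 loci together (open circles), for Runx1, Runx2 and Runx3 alone (coloured symbols) and for all 82391 reference peaks (black bars). Cbfb, with 7 peaks, is included in the circles only. The circle for RUNX is at 33.0% beside a bar at 22.9%, and the square of Runx2 for AP-1 is at 37.9% beside a bar at 16.2%.

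Genes that act with the RUNX proteins were mostly accessible at a start. Of 10 genes for factors that share elements with RUNX proteins, 8 had a start site peak, against 57% of all protein-coding genes. The best score was 1838 at Spi1 (PU.1), 1955 at Cebpa, 1224 at Cebpb, 1903 at Ets1 and 411 at Fli1. It was 716 at Gata2, 1117 at Tal1 and 1002 at Lmo2, genes for factors of blood stem and progenitor cells. The erythroid factor gene Gata1 and the progenitor gene Myb lacked a peak, with the nearest ones 15986 bp and 2782 bp away. Of 16 genes for RUNX cofactors, 14 had a start site peak, with scores from 780 at Cbfa2t3 to 2310 at Sin3a, a scaffold of histone deacetylase complexes. Runx1t1, the partner of Runx1 in a leukaemia fusion, had 0 extended regions within 50 kb, and Tle2, a corepressor gene, had its nearest peak 2658 bp away.

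A start site peak was present in 4 of 8 RUNX targets of blood cells and in 2 of 6 targets of bone and cartilage, against 57% of all protein-coding genes, and counts this small only describe the lists. Among the former, Csf1r (the receptor for the growth factor of macrophages), Csf2, Itgal and Zbtb7b had a start site peak, with scores of 1176, 307, 1773 and 2048. Il3, the granule protein genes Mpo and Elane, and Cd4 lacked one. Among the latter, Spp1 (osteopontin, also made by macrophages) and the collagenase gene Mmp13 had a start site peak, with scores of 1308 and 945. The osteoblast genes Bglap, Sp7 and Ibsp and the cartilage gene Col10a1 lacked one. A peak at a start describes accessibility in the pooled libraries and not transcription.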

How the data were processed

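ATAC-seq of 18 BMDM libraries was analysed from 3 pooled BED lists. Per the methods, adapters were removed with BBDuk, and reads were trimmed (Trimmomatic 0.39), mapped to mm10 with ShortStack and filtered (SAMtools 1.9). Peaks and summits were called with MACS2 2.2.6, with duplicates kept, and peaks were required to pass a q-value threshold and to overlap between replicates. The methods name no Tn5 shift, which can displace summits from the cut sites. Positions and the summit score were used as deposited; the sources do not state how the score was scaled. The lists held 0 columns for single libraries, so that depth and precision of each library are unknown, no test was made and LPS, IL-4 and untreated cells were not compared.

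Peaks and extended regions were assigned to a locus by 1 bp of overlap, summits by position (Python 3.11.15, numpy 2.4.6). Start sites and exons came from GENCODE M21, sequence from GRCm38.p6, which shares mm10 coordinates. Motifs were searched up to 100 bp from each peak's best summit. The routines were tested on simulated data. Named were, for each gene, every joined start site, the 5 best scored summits, the widest peak, the extended region with the most peaks, and genes starting in the locus; gene lists are given by counts with examples. The members, lists and motifs were chosen with earlier results of these data known. Alternatives were other windows, region types, joining distances, transcripts, a longer motif and a score filter.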

Additional observations from a re-analysis of the deposited data

How the results depend on the processing

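The 103 reference peaks of the loci became 66 when extended regions were counted and 50 at or above the median score, while 82 to 128 were counted with the gene body alone or with 20000 or 100000 bp around the start. Among these windows, Runx3 went from 17 to 10 and Cbfb from 7 to 4 peaks with the gene body alone, and to 32 and 16 with 100000 bp, while Runx1 gave 40 to 51 and Runx2 28 to 29. At or above the median score, 28 peaks were left at Runx1, 12 at Runx2, 6 at Runx3 and 4 at Cbfb, and extended regions numbered 29, 21, 11 and 5 in that order. Start sites with a peak numbered 8 of 11 within 500 bp, 10 of 11 within 2500 bp, 7 of 11 with peaks at or above the median score, 7 of 8 joined within 1000 bp and 18 of 21 joined within 200 bp. The distal start of Runx2 lacked a peak in the 500, 1000 and 2500 bp windows.

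The share of genes with fewer extended regions changed with the window. With 20000 bp it was 27.2% for Runx1, 27.2% for Runx2, 42.6% for Runx3 and 59.2% for Cbfb. With 100000 bp it was 66.5%, 48.4%, 95.6% and 57.7% in that order. With reference peaks it was 94.0%, 43.3%, 89.6% and 54.5%, and with summits 93.2%, 42.6%, 88.6% and 53.5%. The cause was not tested.

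The share of peaks with a RUNX motif was 21.4% within 50 bp (13.4% of all reference peaks), 40.8% within 200 bp (35.6%), 12.6% with the longer motif (9.07%), 34.9% away from start sites and 44.0% at or above the median score. It exceeded the share of all reference peaks in each of these 5 alternatives. No paired analysis was possible because the lists hold no column for single libraries. The same limit leaves replicate error, depth and the effect of each stimulus unknown for every value given here.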

Other observations

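The pair of RUNX motifs with starts 8 bp apart was found in 6 RefSeq promoters beside those of the RUNX genes, and in 29 reference peaks outside the 4 loci. These promoters belong to Gm12236, Gm15462, Gm16225, Mid2, Olfr24 and Rab10os. A reference peak overlapped the promoters of Gm12236, Gm16225 and Rab10os, and that of Gm16225 is the same stretch as at Runx3. These genes were named after their values were seen.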
